A study of Mus musculus with 8 samples.

Results

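Endothelial cells line the blood vessels of the kidney, and 35 genes of these cells were followed here in injured kidneys of mice labelled CDH11-/- and CDH11+/+. The 35 genes were chosen as a named list of endothelial receptors, surface proteins, transcription factors and signals, with earlier results of these data known. Their symbols were matched to the Ensembl rows of the deposited counts. All 35 were found, each under 1 identifier, among 42256 rows, and all 35 were among the 15852 genes that passed the edgeR filter on low counts. The RNA was from kidneys of male adults, their strain background given as Mixed:129S1/Sv x C57BL/6. There were 4 libraries labelled CDH11-/- and 4 labelled CDH11+/+, 1 kidney sample each. Mice of both labels received aristolochic acid, a plant toxin that injures the proximal tubule, at 3 mg/kg on each of 5 days, and kidneys were taken 2 weeks after the last dose. Although the series title refers to a different injury model, aristolochic acid is what the sample labels give. No uninjured mice were analysed here, and the sources used here do not say which part of Cdh11 the allele alters.

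The kidney holds several kinds of endothelium. Glomerular capillaries have open pores and filter the blood, peritubular capillaries have pores closed by diaphragms, and arteries, vasa recta, veins and lymphatic vessels carry their own markers. VEGF made by podocytes and tubule cells acts on VEGF receptors of the endothelium, angiopoietins act on the receptor Tek, and factors of the ETS and SOX families keep endothelial genes on. Loss of peritubular capillaries is a known feature of kidneys that scar after injury.

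Libraries held 12966177 to 18539479 counts for the label CDH11-/- and 10675309 to 13885009 for CDH11+/+. Cdh11, the targeted gene, was at 89.9 to 117.2 CPM in the libraries labelled CDH11-/- and at 58.0 to 75.6 CPM in those labelled CDH11+/+. CPM are reads counted relative to library size, scaled by TMM. The level of Cdh11 was thus higher, not lower, in the labelled knockout, and genotypes are given as labelled. In 19 alternative fits its log2 fold change was 0.24 to 0.80, with an adjusted p under 0.05 (edgeR, DESeq2 or limma) in 12 of them. Of the 15852 genes tested, 57 rose and 58 fell in the libraries labelled CDH11-/- at an adjusted p under 0.05 (Benjamini-Hochberg over the quasi-likelihood test of edgeR). The library labelled CDH11+/+ replicate 1 had the lowest total and stood near the other label in several marker sums given further on. The design text counts 4 mice of each genotype, and no litter or batch is given.

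As a group the endothelial genes lay slightly higher in the libraries labelled CDH11-/-, and few passed the test singly. Rgcc and Cyyr1 rose. That is 2 of 35, where 0.36% of all genes tested were called higher. None of the 35 fell, where 0.366% of all genes were called lower, and 21 of 35 were higher at an unadjusted p under 0.05 against 6.74% of all genes and 0 of 35 were lower at that p against 7.63% of all genes. The log2 fold change was positive for 34 of 35 genes and negative for Aplnr, with a median of 0.28 over the 35 and −0.01 over all genes tested. In 14 of 35 genes every library labelled CDH11-/- lay above every library labelled CDH11+/+, which was so for 3.59% of all genes tested, and in 0 the reverse held (3.74% of all genes). A log2 fold change above 0 was found in 47.6% of all genes. Because the 35 were chosen with earlier results of these data known, these counts describe the list and are no independent test of it. In whole tissue, more cells of a type, more RNA per cell and a larger share of the total RNA cannot be told apart.

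The count of members called depended on the fit and on single libraries. It was 11 in DESeq2 (1.55% of all genes called higher) and 15 in limma-voom with quality weights (2.13%). Neither called a member lower, where 1.81% and 2.16% of all genes were. It was 10 with 1 surrogate variable (1.56%), 4 with no filter on low counts (0.331%), and 1 with limma on the authors' normalized values (0.17%) or their factors as offsets (0.202%). Without the library labelled CDH11+/+ replicate 1, edgeR called 16 members (3.06% of all genes). It called 3 without CDH11+/+ replicate 3 (0.224%) or CDH11-/- replicate 4 (0.212%). Rgcc alone was called without CDH11+/+ replicate 2 (0.0811%) or 4 (0.0873%), or without CDH11-/- replicate 1 (0.132%), 2 (0.25%) or 3 (0.156%).

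**Figure D1:**
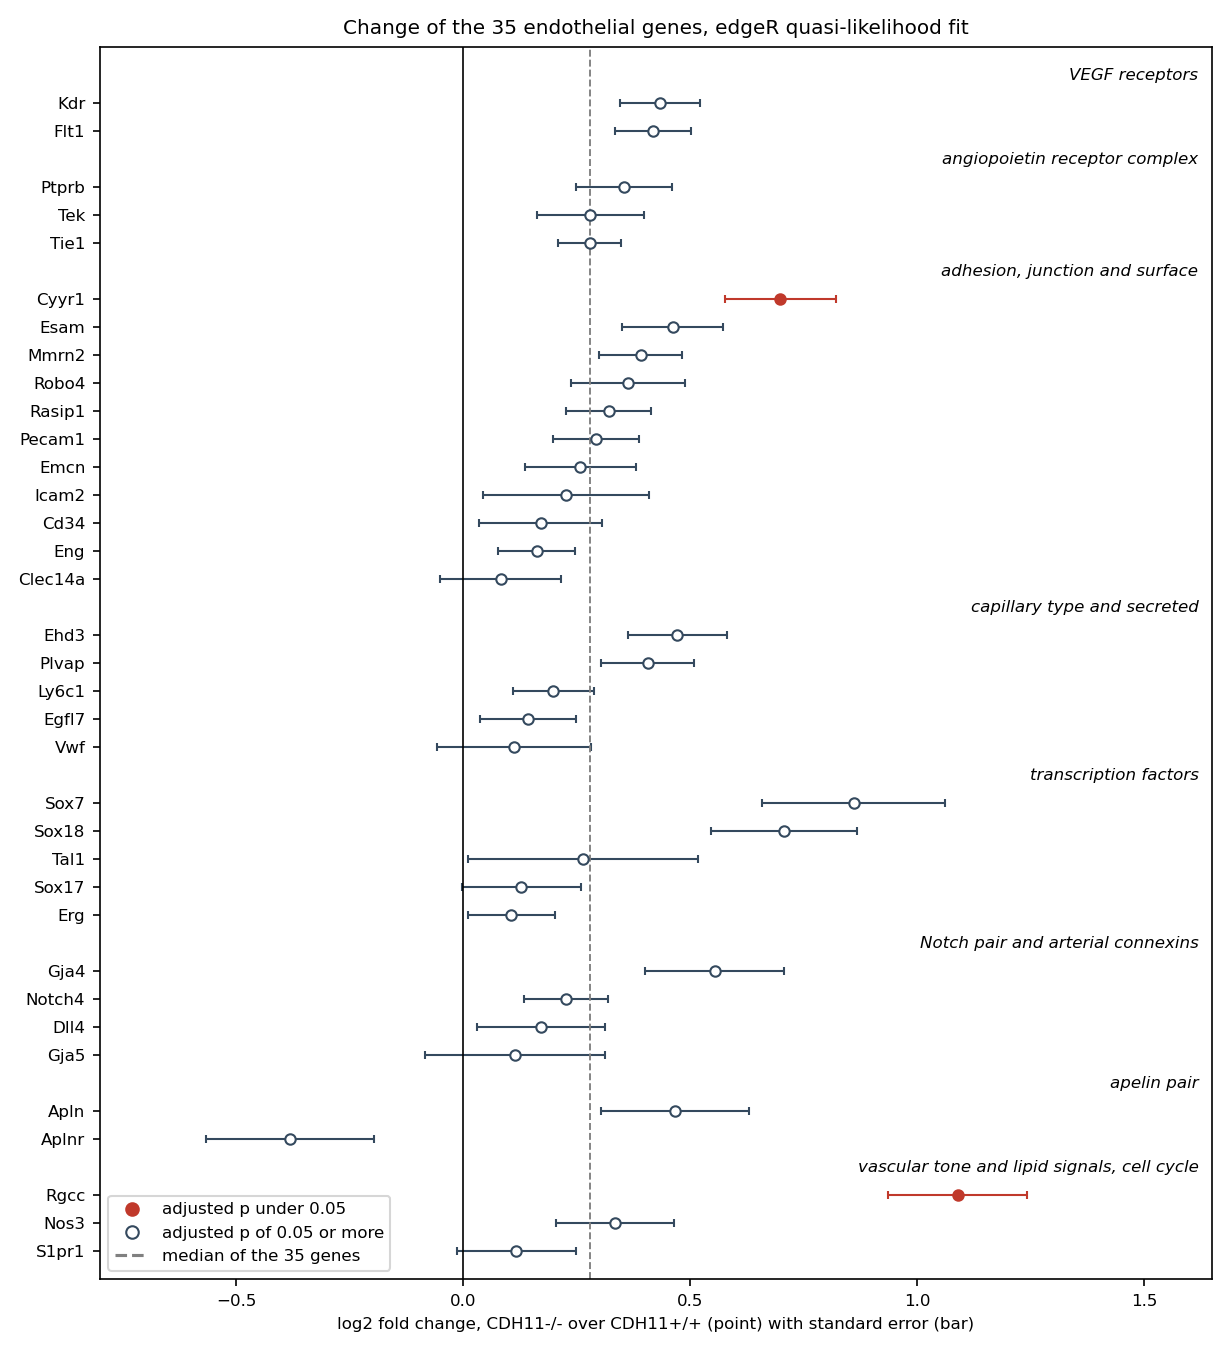
Log2 fold change (x axis, CDH11-/- over CDH11+/+) of the 35 endothelial genes grouped by role, with the standard error as a bar and the median of the 35 (0.28) as a dashed line. Rgcc and Cyyr1, filled, passed the test, and Aplnr is the gene left of 0.

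The summed level of the 35 genes was 1227, 1221, 1298 and 1198 CPM in replicates 1 to 4 labelled CDH11-/-, against 1159, 877.8, 1010 and 999.4 CPM in replicates 1 to 4 labelled CDH11+/+. The labels did not overlap, and the library nearest to the other label was CDH11+/+ replicate 1. CDH11-/- replicate 3 was the highest of the 8 libraries in 15 of 35 genes, and CDH11+/+ replicate 2 was the lowest in 25 of 35. CDH11+/+ replicate 1 was the highest of all in 3 genes, Emcn, Cd34 and Dll4.

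**Figure D2:**
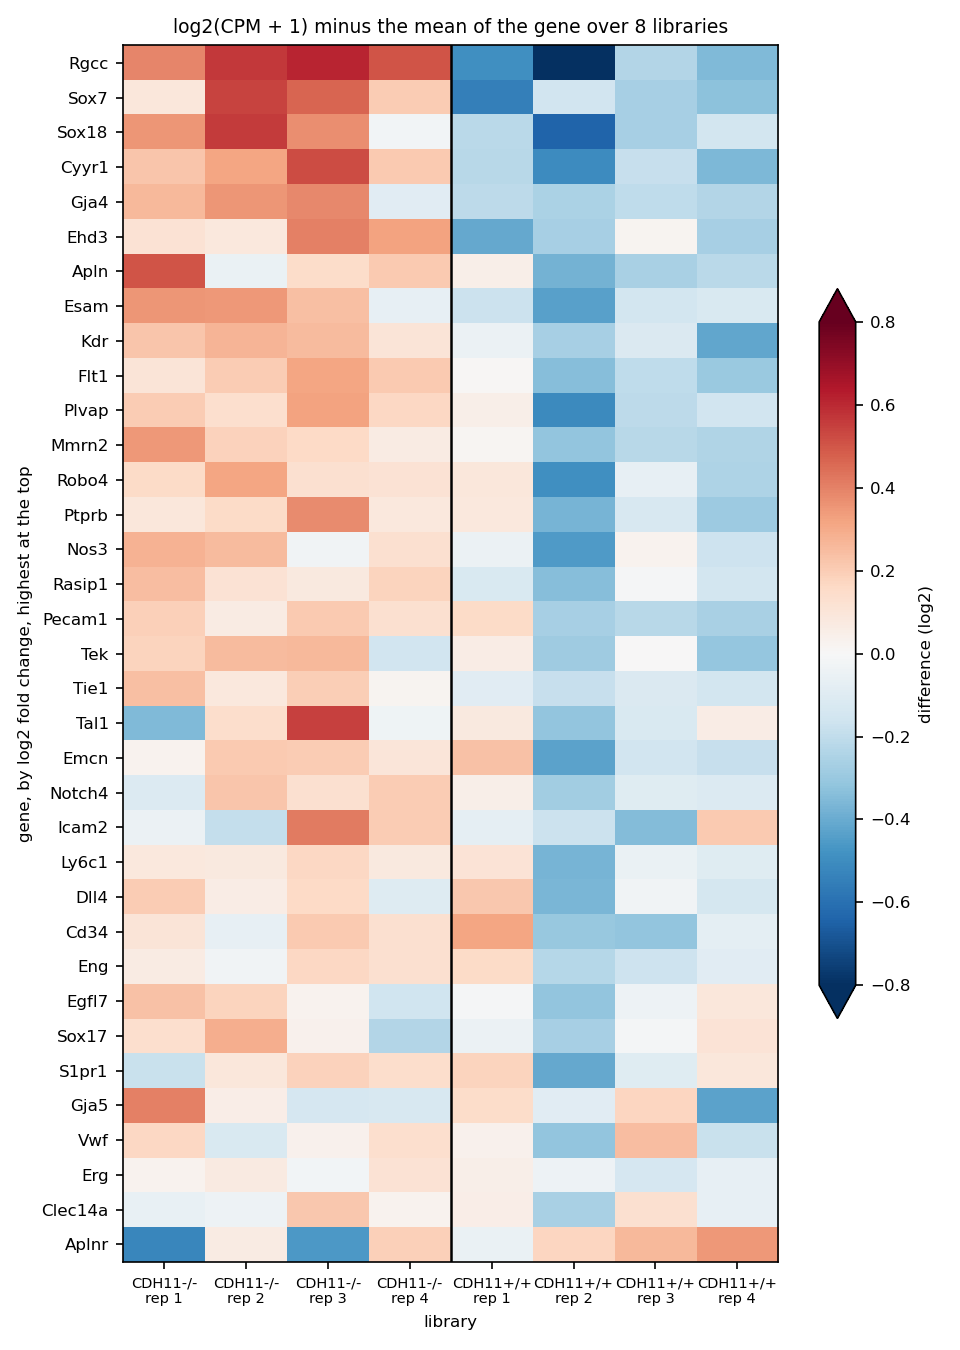
Each cell is log2(CPM + 1) of a gene in a library minus the mean of that gene over the 8 libraries, with libraries labelled CDH11-/- on the left and genes ordered by log2 fold change. CDH11+/+ replicate 2 is the bluest cell in most rows (lowest in 25 of 35 genes), and Aplnr at the bottom is lowest in CDH11-/- replicates 1 and 3.

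Levels were compared between genes per length, as TPM, a share of transcripts computed from the counts and the exon length of each gene. Plvap had the highest median level over the 8 libraries (154.3 TPM, range 92.5 to 189.5), then Ly6c1 (109.8, range 74.5 to 124) and Eng (96.5, range 73.8 to 110.7). Rgcc (41.1 TPM, range 16.0 to 61.2) and Egfl7 (39.5, range 28.1 to 47.6) followed, and their ranges overlap. Pecam1, the CD31 adhesion protein used to stain endothelium, was at 28.5 TPM (range 20.4 to 32.7). The lowest were Sox7 (2.44, range 1.53 to 3.97), Tal1 (2.02, range 1.38 to 3.39) and Vwf (0.993, range 0.650 to 1.12). All 35 genes were detected in every library, the smallest count being 20 for Sox7, so transcripts of every listed gene were present in each kidney sample.

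Rgcc, a regulator of the cell cycle that is also a complement response gene, had the largest change of the 35. Its gene model spans 79288756 to 79301645 on chromosome 14 (GRCm38, minus strand). Rgcc was at 17.3, 19.7, 20.4 and 18.9 CPM in replicates 1 to 4 labelled CDH11-/-, against 8.95, 6.08, 10.9 and 9.95 CPM in replicates 1 to 4 labelled CDH11+/+. All libraries labelled CDH11-/- lay above all labelled CDH11+/+, and CDH11+/+ replicate 2 was the lowest. The means were 19.1 ± 1.32 CPM for CDH11-/- and 8.97 ± 2.09 CPM for CDH11+/+ (SD, n = 4 each), and edgeR gave 1.09 ± 0.15 as the log2 fold change with its SE (adjusted p = 0.0114). Rgcc stayed past the threshold in all 19 alternatives, with log2 fold changes of at least 0.94 and edgeR, DESeq2 or limma adjusted p from 5.4e-08 to 0.0461.

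Cyyr1, a cysteine and tyrosine rich membrane protein gene, was the other member to rise (chromosome 16, 85421533 to 85553397, minus strand). It was at 13.4, 14.4, 16.8 and 13.3 CPM in replicates 1 to 4 labelled CDH11-/-, against 9.60, 7.75, 9.89 and 8.64 CPM in replicates 1 to 4 labelled CDH11+/+. The labels did not overlap. Its log2 fold change was 0.70 ± 0.12 (SE, edgeR adjusted p = 0.031), with means of 14.5 ± 1.61 CPM for CDH11-/- and 8.97 ± 0.973 CPM for CDH11+/+ (SD, n = 4 each). The call ended in 7 of 19 alternatives, 5 of them without 1 library, at edgeR adjusted p of 0.0662, 0.0649 and 0.0863 without CDH11-/- replicate 1, 2 and 3, and of 0.0887 and 0.123 without CDH11+/+ replicate 2 and 4. It also ended with the authors' normalized values in limma (0.66, adjusted p = 0.0914) and with the authors' factors as edgeR offsets (0.68, adjusted p = 0.0807). An exon of Cyyr1 overlaps the gene model Gm2541 on the same strand, which was at 4.83 to 5.70 CPM, and how the authors counted shared reads is not known here.

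The promoters of the 2 genes that rose are shown beside those of the VEGF receptors, the next in order of p, to display the letters at the start sites of endothelial genes. RefSeq (GRCm38.p6) windows of 250 bases before to 50 bases after the start were at hand for 22 of the 35 genes, as 28 windows. Capitals mark AGGAAG or CCGGAA, core letters that ETS factors such as Erg can bind, searched on both strands.
Rgcc, chr14:79301586-79301885, minus strand: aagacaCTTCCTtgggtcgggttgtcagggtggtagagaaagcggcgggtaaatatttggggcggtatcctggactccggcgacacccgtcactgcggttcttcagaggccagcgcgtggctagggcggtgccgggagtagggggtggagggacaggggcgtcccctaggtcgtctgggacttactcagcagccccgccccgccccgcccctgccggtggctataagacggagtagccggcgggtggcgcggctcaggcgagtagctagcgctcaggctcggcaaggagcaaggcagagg
Cyyr1, chr16:85550324-85550623, minus strand: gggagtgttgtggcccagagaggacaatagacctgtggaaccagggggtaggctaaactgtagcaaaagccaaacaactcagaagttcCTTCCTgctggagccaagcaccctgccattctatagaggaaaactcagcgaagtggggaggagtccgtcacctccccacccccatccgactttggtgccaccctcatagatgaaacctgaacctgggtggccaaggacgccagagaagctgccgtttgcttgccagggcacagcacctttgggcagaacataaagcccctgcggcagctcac
Flt1, chr5:147725962-147726261, minus strand: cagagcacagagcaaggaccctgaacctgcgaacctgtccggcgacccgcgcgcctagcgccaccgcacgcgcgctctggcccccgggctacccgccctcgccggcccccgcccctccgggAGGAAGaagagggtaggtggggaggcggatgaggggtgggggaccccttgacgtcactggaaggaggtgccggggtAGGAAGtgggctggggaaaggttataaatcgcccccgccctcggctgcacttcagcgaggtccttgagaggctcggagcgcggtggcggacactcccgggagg
Kdr, chr5:75978406-75978705, minus strand: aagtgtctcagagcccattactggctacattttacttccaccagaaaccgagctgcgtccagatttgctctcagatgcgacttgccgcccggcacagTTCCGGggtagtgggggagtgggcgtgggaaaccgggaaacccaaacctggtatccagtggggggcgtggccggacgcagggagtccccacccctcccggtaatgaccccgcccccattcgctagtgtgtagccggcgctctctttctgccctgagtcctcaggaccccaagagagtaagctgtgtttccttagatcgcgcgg

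Of the 28 windows, 17 (60.7%) held AGGAAG on either strand, and 35.4% of 32851 mouse windows of the same length did. CCGGAA was in 1 of 28 (3.57%), against 14.9% of all windows. Letters of other factors were searched the same way, with the SOX letters AACAAT in 10.7% of the 28 and 10.7% of all, and those of GATA factors, searched as AGATAA, in 10.7% of the 28 and 11.2% of all. The FOX letters GTAAACA were in 0 of 28, and in 3.65% of all windows. Some genes have several windows, and a match says only that the letters are there.

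The VEGF receptors were close to the threshold. Kdr, the main signalling receptor for VEGF, was at 39.2, 40.5, 40.0 and 36.1 CPM in replicates 1 to 4 labelled CDH11-/-, against 32.3, 27.7, 30.8 and 24.8 CPM in replicates 1 to 4 labelled CDH11+/+. Flt1, a receptor that mostly traps VEGF, was at 60.3, 64.7, 70.0 and 65.1 CPM for CDH11-/-, against 56.6, 44.1, 48.7 and 45.5 CPM for CDH11+/+. The labels overlapped in neither gene. The log2 fold changes were 0.43 ± 0.09 for Kdr and 0.42 ± 0.08 for Flt1 (SE, edgeR adjusted p = 0.0558 and 0.0525). Each passed in 6 of 19 alternatives, among them the fit without CDH11+/+ replicate 1 (edgeR adjusted p = 0.0102 for Kdr and 0.0048 for Flt1).

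A list of VEGF and angiopoietin ligands and coreceptors, which also holds the receptor Flt4, was of mixed sign. Of its 11 genes 2 rose and 0 fell, where 0.36% and 0.366% of all genes tested did. There were 6 positive and 5 negative values (median 0.23). Vegfd, a ligand best known from lymphatic vessels, was at 20.2, 18.0, 20.4 and 22.3 CPM in replicates 1 to 4 labelled CDH11-/-, against 15.9, 11.5, 13.1 and 11.4 CPM in replicates 1 to 4 labelled CDH11+/+. Flt4, its receptor and a lymphatic marker, was at 30.1, 26.1, 27.5 and 24.9 CPM for CDH11-/-, against 21.4, 19.8, 18.0 and 20.4 CPM for CDH11+/+. Neither overlapped between labels, with log2 fold changes of 0.65 ± 0.12 for Vegfd and 0.45 ± 0.09 for Flt4 (SE, edgeR adjusted p = 0.0388 and 0.0469). Each of these calls ended when any library other than CDH11+/+ replicate 1 was left out, with edgeR adjusted p from 0.0506 to 0.141 for Vegfd and from 0.0595 to 0.137 for Flt4. Both also ended with the authors' normalized values in limma (adjusted p = 0.0856 for each) and with the authors' factors as edgeR offsets (0.0783 for each).

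Vegfa, the main ligand of Kdr and Flt1 in kidney, averaged 159.2 ± 11.6 CPM for CDH11-/- and 167.2 ± 14.5 CPM for CDH11+/+ (SD, n = 4 each), and its log2 fold change was −0.07 with an SE of 0.08 (edgeR adjusted p = 0.726). Apart from Vegfd, the other ligands of that family did not pass, with −0.15 for Vegfb, 0.27 for Vegfc and −0.37 for Pgf. The coreceptors were at −0.08 for Nrp1 and 0.23 for Nrp2, and neither passed.

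The angiopoietin receptor complex gave smaller values. Tek, the angiopoietin receptor, was at 32.8, 34.5, 34.6 and 25.8 CPM in replicates 1 to 4 labelled CDH11-/-, against 30.0, 23.5, 28.8 and 23.1 CPM in replicates 1 to 4 labelled CDH11+/+, and the labels overlapped. Tie1, its partner receptor, was at 44.0, 39.4, 42.7 and 37.7 CPM for CDH11-/-, against 34.9, 32.6, 34.2 and 33.5 CPM for CDH11+/+, without overlap. Ptprb, the phosphatase that restrains Tek, was at 63.9 to 78.3 CPM for CDH11-/- and 46.3 to 63.9 CPM for CDH11+/+. Log2 fold changes were 0.28 ± 0.12 for Tek, 0.28 ± 0.07 for Tie1 and 0.35 ± 0.11 for Ptprb (SE), and edgeR adjusted p were 0.318, 0.103 and 0.166. The ligands did not pass either, with log2 fold changes of −0.07 for Angpt1 (its sign varied between fits), 0.28 for Angpt2 and 0.49 for Angpt4.

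Surface and junction genes were positive in 11 of 11, with a median log2 fold change of 0.29. Of these 1, Cyyr1, passed (0.36% of all genes were called higher). In edgeR 6 were higher at an unadjusted p under 0.05 (6.74% of all genes), and 5 did not overlap (3.59%). Pecam1 was at 73.0, 67.0, 73.8 and 69.8 CPM in replicates 1 to 4 labelled CDH11-/-, against 71.1, 52.8, 54.6 and 53.2 CPM in replicates 1 to 4 labelled CDH11+/+. CDH11+/+ replicate 1 lay inside the range of the other label and the other 3 below it. The log2 fold change was 0.29 ± 0.09 (SE, edgeR adjusted p = 0.196), and limma-voom with quality weights gave 0.38 (adjusted p = 0.0177). Emcn, the sialomucin endomucin of capillaries and veins, was at 48.8, 55.5, 55.3 and 51.3 CPM for CDH11-/- and 56.5, 35.3, 42.9 and 42.0 CPM for CDH11+/+ (0.26 ± 0.12, SE, edgeR adjusted p = 0.367). CDH11+/+ replicate 1 was the highest of the 8 libraries for Emcn, and the other 3 of its label were the lowest.

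Esam, an adhesion molecule of tight junctions, was at 35.1, 34.8, 32.4 and 26.0 CPM in replicates 1 to 4 labelled CDH11-/-, against 24.1, 19.9, 24.5 and 24.9 CPM in replicates 1 to 4 labelled CDH11+/+. Mmrn2, a matrix ligand of Clec14a, was at 41.4, 36.9, 36.3 and 33.9 CPM for CDH11-/- and 32.7, 25.8, 27.6 and 27.2 CPM for CDH11+/+. Neither overlapped, and the log2 fold changes were 0.46 ± 0.11 for Esam and 0.39 ± 0.09 for Mmrn2 (SE, edgeR adjusted p = 0.0877 and 0.0822). Robo4, a guidance receptor that stabilises vessels, was at 20.0, 22.6, 19.7 and 19.5 CPM for CDH11-/- and 19.2, 12.5, 17.1 and 15.0 CPM for CDH11+/+. Rasip1, a Rap1 effector needed for vessel lumens, was at 23.1, 21.0, 20.5 and 22.0 CPM for CDH11-/- and 17.7, 15.0, 19.2 and 17.4 CPM for CDH11+/+. These also did not overlap, at 0.36 ± 0.13 for Robo4 and 0.32 ± 0.09 for Rasip1 (SE, edgeR adjusted p = 0.225 and 0.159). The remaining surface genes were Icam2 (0.23), the stem cell antigen Cd34 (0.17), the TGF-beta coreceptor endoglin, Eng (0.16), and Clec14a (0.08), with overlapping libraries in all 4. Icam2 ranged from 6.72 to 10.8 CPM for CDH11-/- and from 5.93 to 9.18 CPM for CDH11+/+. Cd34 ranged from 70.7 to 85.8 CPM for CDH11-/- and from 59.4 to 92.6 CPM for CDH11+/+. In Cd34 the highest value of all was CDH11+/+ replicate 1. Eng ranged from 142.3 to 162.6 CPM for CDH11-/- and from 123.9 to 161.2 CPM for CDH11+/+. Clec14a ranged from 8.26 to 10.2 CPM for CDH11-/- and from 7.07 to 9.57 CPM for CDH11+/+.

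**Figure D3:**
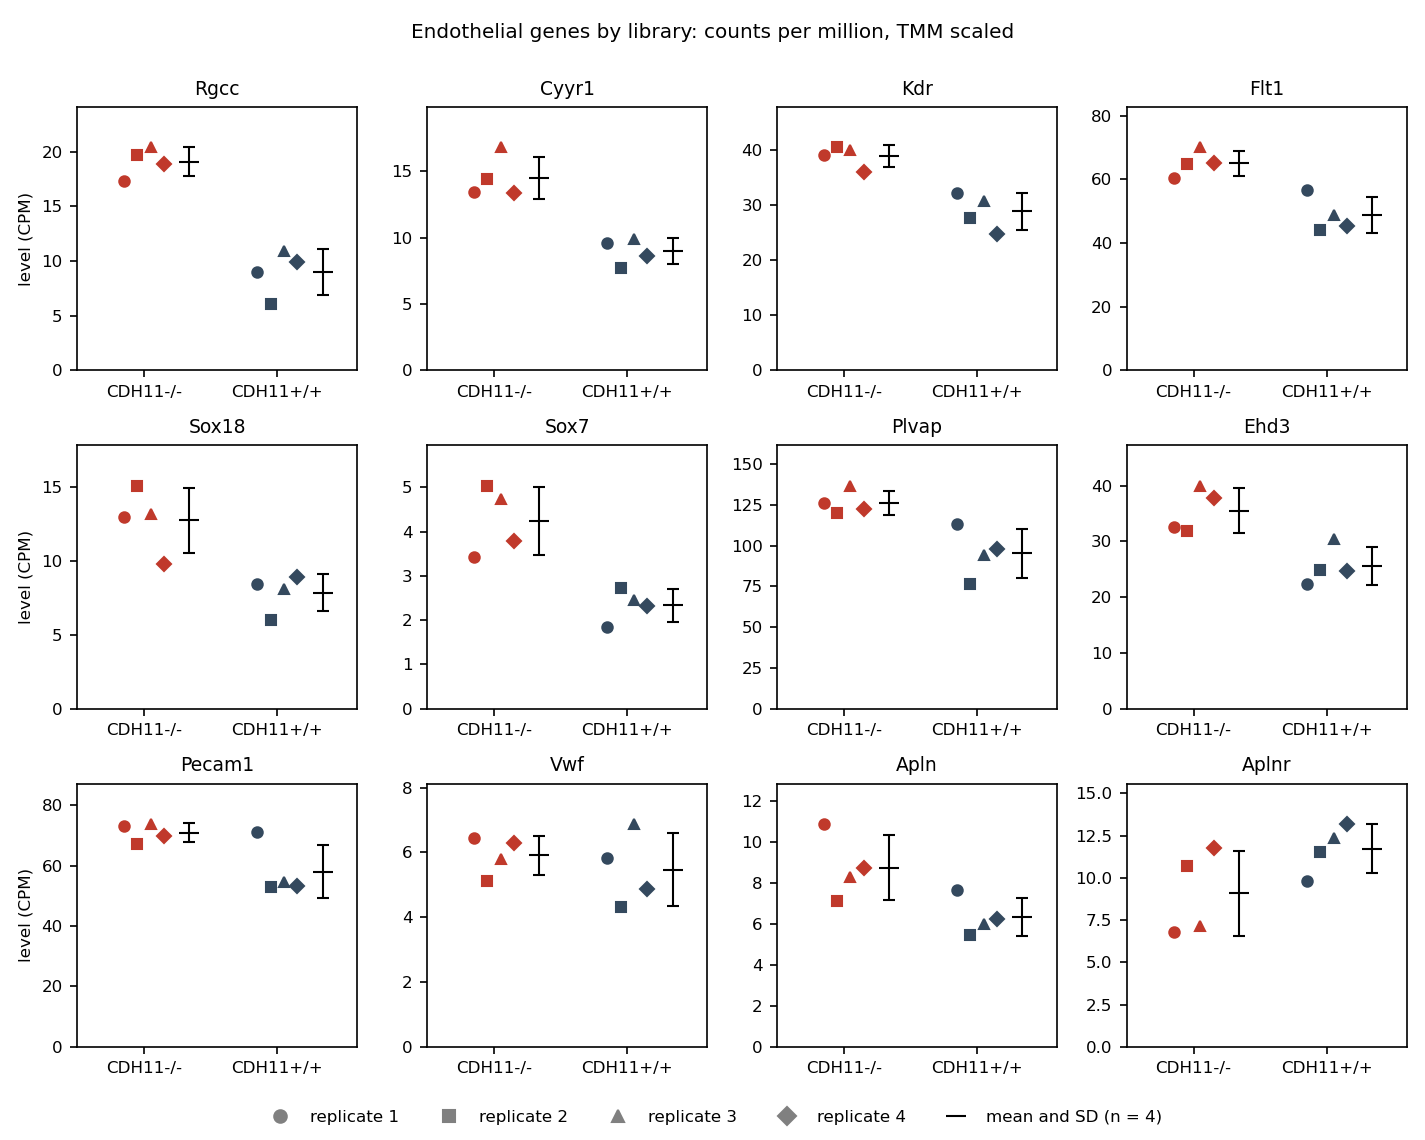
Level in CPM (y axis) of 12 endothelial genes in the 4 libraries of each label, CDH11-/- on the left, with the mean and SD beside the points. Rgcc, Cyyr1, Kdr, Flt1, Sox18, Sox7, Plvap and Ehd3 do not overlap between labels, while Pecam1, Vwf, Apln and Aplnr do.

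Ehd3 and Plvap, 1 marker each of glomerular and of peritubular capillaries, had like changes. The 8 tested genes of a further kidney endothelial subtype list, given below, had lower log2 fold changes, from −0.28 to 0.26. Ehd3, an endocytosis protein that marks glomerular endothelium in mouse kidney, was at 32.6, 31.8, 40.0 and 37.7 CPM in replicates 1 to 4 labelled CDH11-/-, against 22.3, 24.8, 30.5 and 24.8 CPM in replicates 1 to 4 labelled CDH11+/+. Plvap, the protein of pore diaphragms in peritubular capillaries, was at 125.9, 119.9, 136.7 and 122.6 CPM for CDH11-/-, against 112.9, 76.3, 94.2 and 97.9 CPM for CDH11+/+. Neither overlapped, with log2 fold changes of 0.47 ± 0.11 for Ehd3 and 0.41 ± 0.10 for Plvap (SE, edgeR adjusted p = 0.08 and 0.108).

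Vwf, the clotting factor carrier of larger vessels, was at 6.45, 5.11, 5.81 and 6.29 CPM for CDH11-/- and 5.81, 4.33, 6.88 and 4.86 CPM for CDH11+/+. The labels overlapped, the log2 fold change was 0.11 ± 0.17 (SE, edgeR adjusted p = 0.807), and the sign turned in the authors' normalized values (−0.14). Ly6c1, a surface antigen of capillaries whose reads can be shared with close paralogs such as Ly6c2, was at 0.20. Egfl7, a secreted vessel protein that hosts a microRNA, was at 0.14. Neither passed, and their libraries overlapped. Ly6c1 ranged from 71.05 to 75.5 CPM for CDH11-/- and from 51.8 to 72.7 CPM for CDH11+/+. Egfl7 ranged from 46.5 to 61.4 CPM for CDH11-/- and from 41.7 to 55.5 CPM for CDH11+/+. Its exons overlap Agpat2 on the opposite strand, which was at 28.6 to 32.2 CPM, and whether counting used strand is not given.

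Among transcription factors the SOX F members were unequal. Sox18 was at 13.0, 15.1, 13.1 and 9.77 CPM in replicates 1 to 4 labelled CDH11-/-, against 8.40, 6.00, 8.07 and 8.87 CPM in replicates 1 to 4 labelled CDH11+/+. Sox7 was at 3.43, 5.04, 4.75 and 3.79 CPM for CDH11-/-, against 1.85, 2.74, 2.45 and 2.31 CPM for CDH11+/+. Both were without overlap. Sox17, the member known from arteries, was at 16.7, 18.7, 15.5 and 12.7 CPM for CDH11-/-, against 14.6, 12.4, 15.0 and 16.4 CPM for CDH11+/+, with wide overlap.

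The log2 fold changes were 0.71 ± 0.16 for Sox18, 0.86 ± 0.20 for Sox7 and 0.13 ± 0.13 for Sox17 (SE, edgeR adjusted p = 0.0761, 0.0822 and 0.707). The difference between the 3 genes was not tested. Sox7 rests on few reads, with counts as low as 20 in a library. The ETS factor Erg (0.11) and Tal1 (0.26), a factor shared with blood cells, did not pass and overlapped. Erg ranged from 11.8 to 13.1 CPM for CDH11-/- and from 10.8 to 12.5 CPM for CDH11+/+. Tal1 ranged from 2.42 to 5.38 CPM for CDH11-/- and from 2.51 to 3.60 CPM for CDH11+/+.

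Arterial genes were mixed. Gja4, connexin 37 of arterial endothelium, was at 7.05, 7.56, 7.76 and 5.30 CPM in replicates 1 to 4 labelled CDH11-/-, against 4.80, 4.63, 4.83 and 4.70 CPM in replicates 1 to 4 labelled CDH11+/+. Gja5, connexin 40, was at 8.33, 6.34, 5.44 and 5.45 CPM for CDH11-/-, against 6.83, 5.62, 6.96 and 4.24 CPM for CDH11+/+. Gja4 did not overlap (0.55 ± 0.15, SE, edgeR adjusted p = 0.136), whereas Gja5 overlapped (0.11 ± 0.20, edgeR adjusted p = 0.837). The receptor Notch4 (0.23) and its arterial ligand Dll4 (0.17) overlapped and did not pass. Notch4 ranged from 37.4 to 47.3 CPM for CDH11-/- and from 33.2 to 41.8 CPM for CDH11+/+. Dll4 ranged from 10.4 to 13.1 CPM for CDH11-/- and from 8.51 to 13.2 CPM for CDH11+/+. Exons of Gja5 share sequence positions with Gpr89 on the opposite strand, which was at 22.4 to 27.5 CPM, above Gja5 itself. Whether counting used strand is not given.

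The apelin pair pointed in opposite directions without passing. Apln, the peptide ligand made by sprouting endothelium, was at 10.9, 7.11, 8.29 and 8.71 CPM in replicates 1 to 4 labelled CDH11-/-, against 7.66, 5.47, 6.01 and 6.25 CPM in replicates 1 to 4 labelled CDH11+/+. Aplnr, its receptor, was at 6.78, 10.7, 7.13 and 11.7 CPM for CDH11-/-, against 9.78, 11.6, 12.3 and 13.2 CPM for CDH11+/+. CDH11-/- replicates 1 and 3 had the lowest Aplnr values of the 8 libraries, and the labels overlapped in both genes. The log2 fold changes were 0.47 ± 0.16 for Apln and −0.38 ± 0.19 for Aplnr (SE, edgeR adjusted p = 0.23 and 0.378).

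Nos3, the endothelial nitric oxide synthase, was at 16.1, 15.8, 12.8 and 14.4 CPM in replicates 1 to 4 labelled CDH11-/-, against 12.6, 9.27, 13.4 and 11.6 CPM in replicates 1 to 4 labelled CDH11+/+ (0.33 ± 0.13, SE, edgeR adjusted p = 0.275). Its exons overlap Atg9b on the opposite strand, which was at 8.31 to 23.7 CPM, and whether counting used strand is not given. S1pr1, the receptor for the barrier lipid sphingosine 1-phosphate, was at 0.12 and did not pass. S1pr1 ranged from 21.6 to 28.1 CPM for CDH11-/- and from 18.3 to 28.0 CPM for CDH11+/+. Of the 35 genes, 3 overlap an exon of another gene on their own strand and 8 on the opposite strand.

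Ratios of members within a library do not depend on scaling, and 8 pairs were tested (exact permutation, two-sided), where 4 against 4 libraries allow no p below 0.0286. The log2 ratio of Rgcc to Pecam1 per length was 0.87 ± 0.13 for CDH11-/- and 0.06 ± 0.40 for CDH11+/+ (SD, n = 4 each, exact permutation p = 0.0286, adjusted over the 8 pairs 0.114). That of Cyyr1 to Pecam1 was −2.81 ± 0.14 for CDH11-/- and −3.20 ± 0.18 for CDH11+/+ (SD, n = 4 each, exact permutation p = 0.0286, adjusted 0.114). Both pairs were picked with these changes known, and all 4 libraries labelled CDH11-/- were above all labelled CDH11+/+.

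The log2 ratio of Apln to Aplnr was 0.20 ± 0.59 for CDH11-/- and −0.65 ± 0.35 for CDH11+/+ (SD, n = 4 each, exact permutation p = 0.0857, adjusted 0.229). Ehd3 to Plvap, glomerular to peritubular, was −3.56 ± 0.12 for CDH11-/- and −3.61 ± 0.34 for CDH11+/+ (exact permutation p = 0.857, adjusted 0.98). Differences were within 0.06 for Flt1 to Kdr (−0.02), Tek to Tie1 (0.0008) and Dll4 to Notch4 (−0.05), and −0.30 for Gja5 to Plvap, all at adjusted exact permutation p of 0.514 to 1.

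Other genes of the endothelium followed a like pattern. Of 24 further pan-endothelial genes 2 rose and 1 fell, where 0.36% and 0.366% of all genes did. Values were positive in 21 of them (median 0.21). Adgrl4, an adhesion receptor of vessels, was at 52.2, 52.4, 52.4 and 44.5 CPM in replicates 1 to 4 labelled CDH11-/-, against 39.9, 33.9, 36.1 and 38.8 CPM in replicates 1 to 4 labelled CDH11+/+ (0.44 ± 0.08, SE, edgeR adjusted p = 0.0313). Shank3, a scaffold protein best known from synapses, was at 30.6, 34.7, 30.1 and 29.5 CPM for CDH11-/-, against 23.0, 17.9, 21.0 and 23.5 CPM for CDH11+/+ (0.55 ± 0.10, SE, edgeR adjusted p = 0.0313). Pcdh17, a protocadherin, fell, with 9.40, 10.7, 13.2 and 13.3 CPM for CDH11-/-, against 16.4, 25.3, 19.6 and 21.4 CPM for CDH11+/+ (−0.83 ± 0.15, SE, edgeR adjusted p = 0.0335).

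None of these 3 genes overlapped between labels. The call of Adgrl4 ended without CDH11+/+ replicate 2, 3 or 4 or CDH11-/- replicate 1, 2 or 3 (edgeR adjusted p from 0.0755 to 0.104). Those of Shank3 (from 0.056 to 0.0939) and Pcdh17 (from 0.0595 to 0.129) ended without any library other than CDH11+/+ replicate 1. All 3 calls also ended with the authors' normalized values in limma (adjusted p = 0.226 for Adgrl4, 0.149 for Shank3 and 0.0607 for Pcdh17). With the authors' factors as edgeR offsets they ended too (adjusted p = 0.206, 0.135 and 0.055). Cdh5, the VE-cadherin of endothelial junctions, averaged 44.0 ± 2.99 CPM for CDH11-/- and 34.9 ± 4.50 CPM for CDH11+/+ (SD, n = 4 each, log2 fold change 0.34 ± 0.09 SE, edgeR adjusted p = 0.143), and lies 1.32 Mb from Cdh11 on chromosome 8.

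In the Notch, flow and arteriovenous list 0 of 19 genes passed in edgeR, 16 were positive and the median was 0.18. At an unadjusted p under 0.05 in edgeR 6 were higher and 0 lower, against 6.74% and 7.63% of all genes. Those of smallest p were the chemokine Cxcl12 (0.78 ± 0.19, SE, edgeR adjusted p = 0.114) and the Notch ligand Jag2 (0.31 ± 0.10, edgeR adjusted p = 0.197). In a list of kidney endothelial subtype genes 0 of 8 tested passed in edgeR (1 higher and 0 lower at an unadjusted p under 0.05), with Ltbp4 at 0.24 and Npr3 at 0.17 and a median of 0.15. Endothelial activation genes had a median of −0.10, with 5 of 8 negative and 0 called in edgeR (1 higher and 2 lower at an unadjusted p under 0.05). The leukocyte adhesion molecules Vcam1 (−0.46 ± 0.10, SE, edgeR adjusted p = 0.0759) and Icam1 (−0.26 ± 0.06, edgeR adjusted p = 0.08) had the smallest p there, and both genes are also made by injured tubule cells.

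Levels of markers of other cells differed between the labels too, in either direction, and their part in the result was not tested. The summed level of 14 proximal tubule markers was 3110, 5963, 3539 and 2327 CPM in replicates 1 to 4 labelled CDH11-/-, against 2983, 8363, 8052 and 5922 CPM in replicates 1 to 4 labelled CDH11+/+. All 14 had negative values (median −0.81). In edgeR 12 were lower at an unadjusted p under 0.05 (7.63% of all genes), and 8 did not overlap (3.74%). Slc13a3, a dicarboxylate transporter, was the 1 that fell at an adjusted p under 0.05 (−1.51 ± 0.24, SE, edgeR adjusted p = 0.0469). That call ended in 9 of 19 alternatives, among them every fit that left out a library other than CDH11+/+ replicate 1 (edgeR adjusted p from 0.079 to 0.141). CDH11+/+ replicate 2, the lowest library for most endothelial genes, had the highest tubule sum. The tubule sums overlapped between labels, but Kap, an androgen-regulated tubule gene, alone took 283.8 to 4363 CPM of them. The other 13 markers summed to 2210, 2652, 2383 and 1714 CPM in replicates 1 to 4 labelled CDH11-/- and to 2700, 5491, 3689 and 4132 CPM in replicates 1 to 4 labelled CDH11+/+, without overlap, a split made after the values were seen.

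Podocyte markers, 8 genes of the same glomeruli, summed to 571.7 to 704.6 CPM for CDH11-/- and 399.9 to 583.9 CPM for CDH11+/+. Values were positive in 8 of 8 (median 0.29) and 0 were called in edgeR (5 higher at an unadjusted p under 0.05, against 6.74% of all genes). Fibroblast markers summed to 1595 to 2301 CPM for CDH11-/- and 1356 to 1974 CPM for CDH11+/+ (7 of 7 positive, median 0.35). In edgeR 0 of them were called, and 4 were higher at an unadjusted p under 0.05 (6.74% of all genes). The podocyte and fibroblast medians were not below the median of 0.28 for the 35 endothelial genes. Pericyte and mural markers summed to 482.3 to 583.9 CPM for CDH11-/- and 442.8 to 555.8 CPM for CDH11+/+ (7 of 10 tested positive, median 0.16). In edgeR 0 of these were called, and 3 were higher at an unadjusted p under 0.05. Macrophage markers summed to 4252 to 5418 CPM for CDH11-/- and 3642 to 5214 CPM for CDH11+/+ (10 of 10 positive, median 0.13). In edgeR 0 of them were called, and 1 was higher at an unadjusted p under 0.05. The podocyte, fibroblast, mural and macrophage sums overlapped between labels only through CDH11+/+ replicate 1. The remaining libraries of that label reached at most 545.7, 1448, 470.4 and 3960 CPM, below every library labelled CDH11-/-.

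Lymphatic markers, 7 genes with Flt4 among them, summed to 83.6 to 90.0 CPM for CDH11-/- and 67.6 to 75.0 CPM for CDH11+/+, without overlap. Most of each sum came from Pdpn (means of 41.3 CPM for CDH11-/- and 36.7 CPM for CDH11+/+) and Flt4 (27.2 and 19.9 CPM). Of the 6 tested, only Flt4 was without overlap, and the libraries overlapped in Pdpn (log2 fold change 0.17, edgeR adjusted p = 0.341). The sum is therefore no measure of lymphatic endothelium alone. Prox1, listed here as a lymphatic marker, was at a log2 fold change of −0.06, and Lyve1 at 0.91, neither past the threshold. Blood and platelet markers summed to 90.7 to 112.5 CPM for CDH11-/- and 83.2 to 108.9 CPM for CDH11+/+, with 4 of 7 tested positive and a median of 0.01. None of the 67 markers was at 0 in every library.

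**Figure D4:**
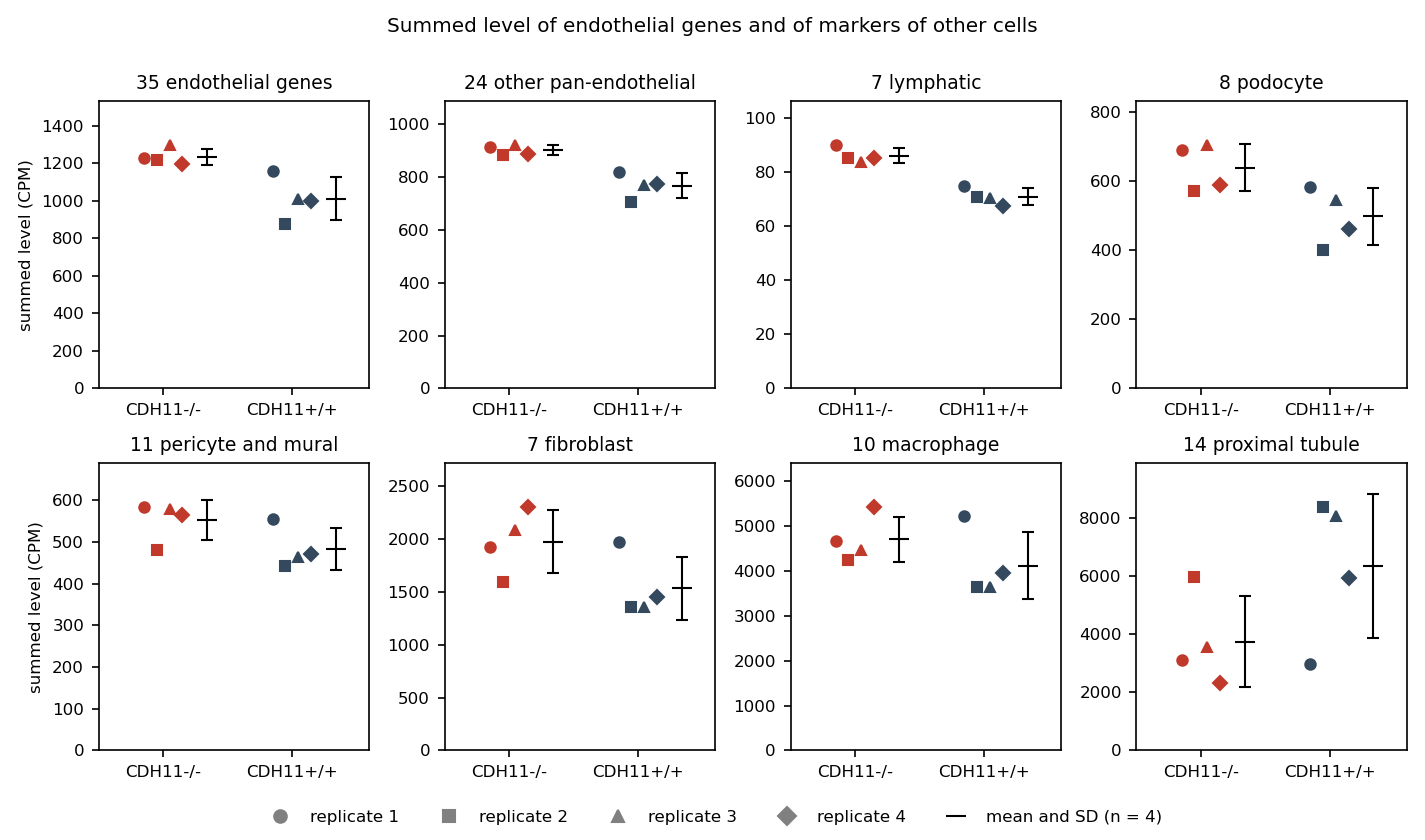
Summed level in CPM (y axis) of the 35 endothelial genes, of 24 further pan-endothelial genes and of markers of 6 other cell types in each library, CDH11-/- on the left, with mean and SD. Endothelial and lymphatic sums do not overlap between labels. Podocyte, mural, fibroblast and macrophage sums overlap only through CDH11+/+ replicate 1, its other replicates lying below every CDH11-/- library. Proximal tubule sums overlap, but not without Kap. Most of the lymphatic sum is Pdpn and Flt4.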

How the data were processed

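RNA of 8 injured mouse kidneys was sequenced. The authors deposited whole-number counts per Ensembl gene and a second table of signal, their normalized counts. The submitters' processing notes name mm10, DRAGEN and DESeq2. Versions, annotation and counting mode are not stated there. Dividing deposited counts by those values gives scaling factors, and these vary from gene to gene. Among 14733 genes well counted in all libraries (10 or more), 33.1% of factors lay within 1% of their library's median. Names, coordinates and exon lengths came from GENCODE M21 (GRCm38), which names all 42256 identifiers. Groups were taken from the labels, and replicate numbers follow deposit order. There were 0 columns of other samples.

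Counts were tested with the quasi-likelihood F test of edgeR 4.0.16 in R 4.3.3 (TMM, the edgeR filter on low counts, robust and non-legacy moderation, genotype as the only term), with p-values adjusted by Benjamini-Hochberg over all 15852 genes at a threshold of 0.05. SE was taken as the size of the log2 fold change divided by the root of F. Common dispersion corresponds to a biological variation of 13.5%. Depth ran between 10675309 and 18539479 counts, so a gene below 5 CPM rests on few counts. Ratios used counts plus 0.5. The replicates may share a source that the labels do not give, so p-values measure the spread between these samples. The edgeR, DESeq2 and limma-voom fits were tested on simulated data.

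Values in every library are given for members past the threshold, for those at an unadjusted p under 0.05 without overlap, and for a set spread over the roles. Others named are the calls and the 2 smallest p of each list and all VEGF and angiopoietin genes. Cdh5, Prox1, Lyve1 and Pdpn were also named, chosen after their values were seen. The members, lists and pairs were chosen with earlier results of these data known. Alternatives were other scalings and filters, DESeq2 1.42.0, limma-voom (limma 3.58.1), limma on the authors' values, their factors as offsets, 1 surrogate variable (sva 3.50.0), legacy moderation (added after seeing the data) and leaving out each library.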

Additional observations from a re-analysis of the deposited data

Results flagged for a closer look

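Of 70 sets of 4 libraries (35 genes, each label), 3 held a library far from the other 3, where chance gives about 1 in 20. Pecam1 was at 71.1 CPM in CDH11+/+ replicate 1, the other libraries of that label lying at 52.8 to 54.6 CPM. Esam was at 19.9 CPM in CDH11+/+ replicate 2, with the others at 24.1 to 24.9 CPM. Ly6c1 was at 75.5 CPM in CDH11-/- replicate 3, with the others at 71.05 to 71.3 CPM.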

How the results depend on the processing

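The number of endothelial genes called higher was 2, and became 11 in DESeq2, 15 in limma-voom, 10 with 1 surrogate variable, 4 with no filter on low counts, 1 with either use of the authors' normalization, 9 at an adjusted p of 0.1 and 0 at 0.01. The shares of all genes called higher at 0.1 and at 0.01 were not worked out, so these counts have no background beside them. Leaving out each library gave 1 to 16. The number called lower was 0 in every fit run. Over all genes, 115 calls became 532 in DESeq2, 679 in limma-voom, 514 with 1 surrogate variable, 54 with limma on the authors' values and 65 with their factors as offsets, and 27 to 993 without 1 library. The median log2 fold change of the 35 genes stayed between 0.23 and 0.36 in all 19 alternatives. Genes without overlap numbered 14, and 14 to 22 without 1 library, the 22 being without CDH11+/+ replicate 1. Leaving a library out can only keep or raise this count. The share of all genes was not worked out for 3 against 4 libraries, so the rise cannot be read as a gain. Of 665 values of single members under alternatives, 604 kept direction and side of the threshold, 50 gained a call, 7 lost one (all Cyyr1) and 4 changed sign. The sign changes were Vwf at −0.14 with limma on the authors' values and −0.11 with their factors as offsets, and Gja5 at −0.0181 without CDH11+/+ replicate 4 and −0.0276 without CDH11-/- replicate 1 (up to 0.2069 without 1 library). Angpt1 was at 0.0295 in limma-voom, and at 0.0145, 0.0177 and 0.0015 without CDH11+/+ replicate 1, CDH11+/+ replicate 2 and CDH11-/- replicate 2 (down to −0.1644 without 1 library). The Tek to Tie1 difference was −0.0138 in the authors' values. Without 1 library it ran from −0.0577 to 0.0615, Flt1 to Kdr from −0.0538 to 0.0238, Dll4 to Notch4 from −0.1711 to 0.0465 and Ehd3 to Plvap from −0.0918 to 0.1479, and with 3 against 4 libraries the smallest exact permutation p is 0.0286. The cause of these changes was not tested. No paired analysis was possible because the labels give no replicate numbers, and those used here follow deposit order and tie no animals together. Sox7, Tal1 and Gja4 rest on the fewest counts, with lowest library counts of 20, 33 and 52.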
